A study of Homo sapiens with 6 samples.

Results

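The genes described here are the machinery of macroautophagy, from the kinase complex that starts it to the cargo receptors, together with the transcription factors TFEB and TFE3. They were chosen by symbol, as a list of 43 genes among the 25343 gene lines of the count table, and all 43 symbols were found there. A375 cells, a long-established line that came from a human malignant melanoma, were given panobinostat, an inhibitor of histone deacetylases, at 50 nM for 24 h, and the control cells received an equal volume of PBS as vehicle. Cells of both groups were lifted from the dish with Versene and had their RNA purified on columns with DNase. Each group has 3 bulk RNA-seq libraries, numbered as replicates 1 to 3, and the comparison asks what panobinostat did to the mRNA levels of these genes.

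Library totals were 32293283 to 38944399 counts, so that 3 counts in a library amount to 0.0774 to 0.0928 CPM, the count of a gene relative to its library's size in the usual unit, with sizes scaled here by the TMM method of edgeR. Whether each replicate was its own culture is not in the labels, and the p-values therefore reflect library-to-library spread alone, and that spread may be technical. The melanocyte lineage genes SOX10 (813 CPM ± 56.3 SD, n = 3, in vehicle) and CSPG4 (1054 ± 90.8) were abundant, whereas MLANA and TYR had 0 counts in every library and DCT was near 0. Of 11 such lineage markers 8 were tested, 1 rose and 7 fell, against 41.8% higher and 41.0% lower over all genes tested. The summed level of the 11 markers was 2952 to 3263 CPM in vehicle and 1048 to 1150 with panobinostat. The marker that rose was PMEL, a melanosome protein, from 0.628 ± 0.118 to 194 ± 9.46 CPM (308-fold). The summed level of 10 markers of other cell types was 40.0 to 45.1 CPM in vehicle and 95.4 to 98.0 with panobinostat, nearly all of it CD68, which also encodes a lysosomal membrane protein. Without CD68 the sum was 4.93 to 5.27 and 6.80 to 7.14 CPM, and it combines moves in opposite directions at low levels. PECAM1, an endothelial marker, went from 0.0981 ± 0.0784 to 2.91 ± 0.293 CPM (SD, n = 3), EPCAM from 0.0624 ± 0.0134 to 0.690 ± 0.152 and VWF from 1.57 ± 0.118 to 2.20 ± 0.141, all called higher, while KRT14 fell from 3.17 ± 0.321 to 0.779 ± 0.0921. PTPRC, CD3E and ALB were at or below the 3-count level in every library. The part of these markers in the results below was not tested. In bulk RNA a change in the mix of cells cannot be told apart from a change of RNA per cell.

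Macroautophagy encloses cytoplasm in a double membrane, the autophagosome, and delivers it to the lysosome. A kinase complex around ULK1 starts the process, a class III PI3-kinase complex marks the membrane, and lipid is supplied by ATG9 vesicles and ATG2 lipid transfer proteins. The ATG12 and ATG8 conjugation systems then couple ATG8 proteins (the LC3 and GABARAP families) to the membrane, where cargo receptors such as SQSTM1 (p62) bind them. TFEB and TFE3, relatives of the melanocyte factor MITF, switch on lysosomal and autophagy genes and are held in the cytoplasm by mTORC1 in fed cells.

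Most of the machinery was higher after panobinostat. Of the 43 genes 42 had enough counts to be tested, and 29 of them (69.0%) rose, 9 (21.4%) fell and 4 did not pass at an adjusted p of 0.05. Over all 15499 genes tested, 41.8% rose and 41.0% fell, so a change in itself was common in these cells. At least 2-fold rises were seen for 10 of the 42 (23.8%), against 18.9% of all genes, and an at least 2-fold fall for 1 (2.38%), against 11.7%. The median log2 fold change was 0.32 for the autophagy genes and 0.01 for all genes, and the median absolute change was 0.47 against 0.60. The autophagy genes therefore leaned upward, with changes that were mostly modest in size. The vehicle and panobinostat libraries did not overlap for 37 of the 42 (88.1%), as for 83.4% of all genes.

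**Figure D1:**
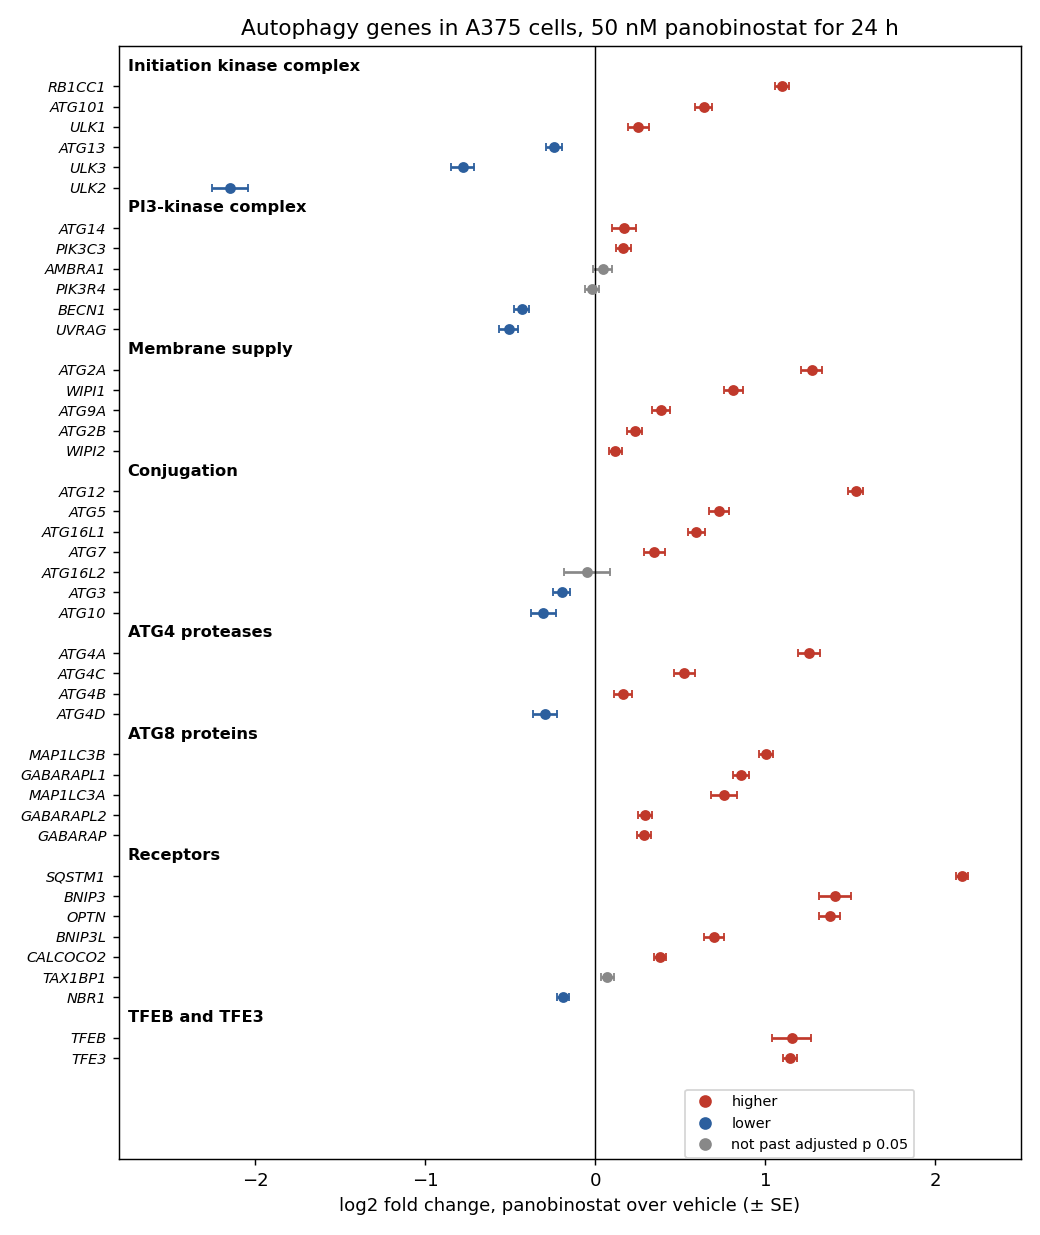
Each point is the log2 fold change of 1 gene, panobinostat over vehicle, with its standard error as the bar, grouped by role (n = 3 libraries per group), and color gives the call at an adjusted p of 0.05. All genes of the membrane supply, ATG8 and TFEB/TFE3 groups that were tested lie to the right of 0, the initiation and PI3-kinase groups lie on both sides, and SQSTM1 (2.16) and ULK2 (-2.15) mark the ends of the range.

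The ends of that range were the receptor gene SQSTM1 and the kinase gene ULK2, and the sequences before their start sites are shown for reference beside the values that follow. They come from RefSeq on GRCh38.p14, are the 250 bases before the first listed start (SQSTM1 at chr5:179806143-179806392, plus strand, and ULK2 at chr17:19867937-19868186, minus strand), and read 5′ to 3′ along the gene. Capitals mark matches to the GC box GGGCGG, the core of sites read by Sp1 family factors, on either strand, where neighboring matches can overlap.
SQSTM1: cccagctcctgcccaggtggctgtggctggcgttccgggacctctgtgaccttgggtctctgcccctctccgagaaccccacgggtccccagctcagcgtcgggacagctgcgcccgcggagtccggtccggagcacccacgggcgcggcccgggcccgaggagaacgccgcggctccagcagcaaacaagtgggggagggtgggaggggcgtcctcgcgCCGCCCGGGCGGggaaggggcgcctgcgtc
ULK2: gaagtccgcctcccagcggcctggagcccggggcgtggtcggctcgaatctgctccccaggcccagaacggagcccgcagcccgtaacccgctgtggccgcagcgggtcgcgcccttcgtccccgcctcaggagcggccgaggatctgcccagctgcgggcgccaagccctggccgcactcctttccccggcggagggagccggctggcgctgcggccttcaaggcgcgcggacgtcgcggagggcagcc
Both windows are rich in G and C (75.2% for SQSTM1 and 76.0% for ULK2), and the ULK2 window holds none of the motifs searched.

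Cargo receptors tether ubiquitinated or damaged material to ATG8 proteins, and 5 of the 7 measured rose, 1 fell and 1 did not pass. The shares over all genes tested were 41.8% higher and 41.0% lower. SQSTM1, the receptor for ubiquitinated aggregates, which also binds KEAP1, stood at 271, 274 and 258 CPM in vehicle replicates 1, 2 and 3 and at 1200.1, 1187 and 1201 CPM with panobinostat. All panobinostat libraries lay far above all vehicle libraries, a 4.46-fold rise (log2 2.16 ± 0.04 SE, adjusted p = 3.65e-18). Its share of the summed CPM of the 43 genes went from 8.16 to 8.76% in vehicle to 23.3 to 23.9%. The sum of the other 42 genes was 2827 to 2910 CPM in vehicle and 3834 to 3900 CPM with panobinostat, so the increase of the total was not SQSTM1 alone. The end of SQSTM1 overlaps MRNIP (C5orf45 in the table) on the opposite strand, over 1384 of its 3476 bp of exon. MRNIP was at 4.95 CPM in vehicle and 6.84 with panobinostat, little against SQSTM1. With no stated strand setting, reads in the overlap may have been counted for either gene or for neither.

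OPTN, a receptor for bacteria and damaged mitochondria, was at 22.4, 21.2 and 24.9 CPM in vehicle and 58.5, 61.2 and 58.5 with panobinostat. The groups stood well apart, a 2.60-fold rise (log2 1.38 ± 0.06 SE, adjusted p = 7.73e-13). BNIP3, a mitophagy receptor of the outer mitochondrial membrane, was at 113, 138 and 137 CPM in vehicle and 358, 362 and 309.8 with panobinostat. Its lowest treated library was still above every vehicle library, and the fold was 2.66 (log2 1.41 ± 0.09 SE, adjusted p = 3.85e-06). GENCODE lists 39 pseudogenes of BNIP3, and 1 each of SQSTM1, MAP1LC3B, ATG12, ATG3, ATG4A and BECN1. None of them is a line of the table, so how their reads were assigned is not known. BNIP3L (NIX), a relative of BNIP3, rose 1.62-fold, from 109 ± 9.20 to 177 ± 10.3 CPM (SD, n = 3). CALCOCO2 (NDP52), a receptor for bacteria and mitochondria, rose 1.30-fold. NBR1, an aggregate receptor related to SQSTM1, moved the other way. It was at 361, 372 and 381 CPM in vehicle and 331, 325 and 319.9 with panobinostat, a small fall without overlap (log2 -0.19 ± 0.04 SE, adjusted p = 8.72e-05) that did not pass with upper quartile scaling (log2 -0.07). TAX1BP1, a receptor related to CALCOCO2, was at 242, 248 and 264 CPM and then 265, 264 and 261, with groups that overlapped (log2 0.07 ± 0.04 SE, adjusted p = 0.103). Under upper quartile scaling it was called higher (log2 0.19).

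The ATG8 genes encode the ubiquitin-like proteins that coat the growing membrane. All 5 rose, against 41.8% of all genes tested, with a median log2 change of 0.76. MAP1LC3B, the LC3 gene followed most often as an autophagosome marker, was at 83.1, 85.0 and 88.4 CPM in vehicle and 165, 175 and 174 with panobinostat. Each treated library was near 2 times the vehicle level (fold 2.01, log2 1.005 ± 0.04 SE, adjusted p = 3.8e-13). GABARAPL1 was at 37.5, 36.9 and 36.4 CPM in vehicle and 67.7, 69.1 and 64.1 with panobinostat, a 1.81-fold rise without overlap (log2 0.86 ± 0.05 SE, adjusted p = 2.61e-11). MAP1LC3A rose 1.69-fold from a low level (10.2 ± 0.836 to 17.4 ± 1.03 CPM), and GABARAP and GABARAPL2 each rose 1.22-fold. GABARAP shares 691 of its 2266 bp of exon with AC120057.2 on the same strand, which is not a line of the table. The near copy MAP1LC3B2 had 17 to 21 counts in vehicle and 39 to 40 with panobinostat, and GABARAPL3 had 0 to 2 and 7 to 11. Few reads were counted for either, and how reads that match more than 1 copy were treated is not known.

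Per kilobase of exon, GABARAP and GABARAPL2 were the most abundant ATG8 mRNAs in both groups, and the composition moved toward MAP1LC3B. Its share of the family's CPM per kb went from 16.4% to 23.3% on average, and that of GABARAPL1 from 7.14% to 9.18%. The GABARAP share went from 34.6% to 29.95% and the GABARAPL2 share from 38.6% to 33.5%, although the mRNA of each rose. The family's summed level was 173 CPM per kb in vehicle and 244 with panobinostat.

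The ATG4 proteases trim ATG8 precursors and later free them from lipid. Of the 4 genes 3 rose and 1 fell, against 41.8% and 41.0% of all genes tested. ATG4A was at 9.71, 9.94 and 10.5 CPM in vehicle and 24.3, 24.3 and 23.5 with panobinostat, with a wide gap between the groups (2.39-fold, log2 1.26 ± 0.06 SE, adjusted p = 8.3e-12). ATG4C rose 1.44-fold (23.9 ± 0.240 to 34.3 ± 2.91 CPM). ATG4B, the member with the broadest activity on ATG8 proteins, was at 31.4, 30.1 and 29.1 CPM and then 33.4, 33.2 and 35.0, a rise of only 1.12-fold (log2 0.16 ± 0.05 SE, adjusted p = 0.0112). That call was lost without vehicle replicate 2 (log2 0.14). ATG4D fell by 0.29 on the log2 scale (24.1 ± 2.29 to 19.6 ± 0.634 CPM). Per kilobase, ATG4D held the largest share of the family in vehicle (36.6%, ahead of ATG4B at 26.4%), and with panobinostat the 4 shares were 24.7% for ATG4A, 23.7% for ATG4B, 27.7% for ATG4C and 23.9% for ATG4D. ATG4D shares 341 bp of its 1949 bp of exon with KRI1 on the opposite strand (79.8 to 92.8 CPM), and ATG4B shares 237 bp with THAP4 (39.2 to 22.4 CPM). Without a known strand setting, reads of these neighbors could be counted in either gene, so this order and the shares are uncertain.

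**Figure D2:**
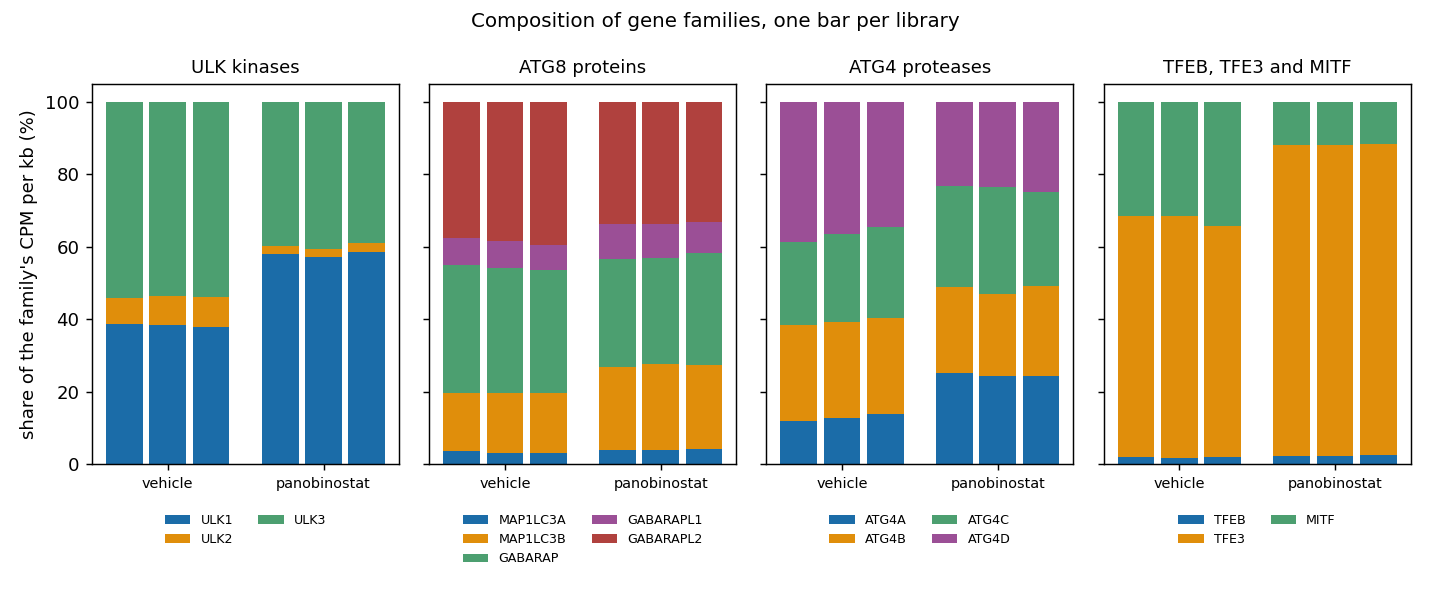
Each bar is 1 library and splits a family's summed CPM per kb of exon into the percent held by each gene, for the ULK kinases, the ATG8 proteins, the ATG4 proteases and TFEB, TFE3 and MITF. The 3 bars of a group look alike. Between vehicle and panobinostat ULK1 grows from 38.3% to 58.0% of the ULK kinases and TFE3 from 65.7% to 85.7% of TFEB, TFE3 and MITF.

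The conjugation genes encode the enzymes that attach ATG8 proteins to lipid. Of the 7 genes 4 rose, 2 fell and 1 did not pass, against 41.8% higher and 41.0% lower over all genes tested. ATG12, the ubiquitin-like protein joined to ATG5, was at 54.3, 55.8 and 58.5 CPM in vehicle and 161, 169 and 158 with panobinostat, a 2.89-fold rise (log2 1.53 ± 0.04 SE, adjusted p = 3.47e-15). No other conjugation gene reached 2-fold. ATG12 shares 378 bp of exon with AP3S1 on the opposite strand, which went from 61.6 to 209 CPM, and with no stated strand setting reads of the pair cannot be told apart there. ATG5, the partner of ATG12, was at 24.3, 25.1 and 26.8 CPM in vehicle and 42.4, 44.1 and 39.7 with panobinostat (1.66-fold, log2 0.73 ± 0.06 SE, adjusted p = 3.62e-09). ATG16L1, which brings that pair to the membrane, rose 1.51-fold (35.8 ± 0.703 to 54.1 ± 2.20 CPM), so the mRNAs of the ATG12, ATG5 and ATG16L1 complex were all higher.

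ATG7, the E1-like enzyme of both conjugation systems, was at 26.0, 23.6 and 27.3 CPM in vehicle and 34.0, 31.2 and 32.6 with panobinostat, a smaller rise without overlap (1.27-fold, log2 0.35 ± 0.06 SE, adjusted p = 7.52e-05). It shares 1596 bp of exon with VGLL4 on the opposite strand, which moved the other way, from 107 to 55.5 CPM. The E2-like genes both fell. ATG10, which acts on ATG12, fell by 0.31 on the log2 scale (11.7 ± 0.183 to 9.43 ± 0.447 CPM). ATG3, which acts on ATG8 proteins, was at 62.4, 66.0 and 68.9 CPM and then 57.3, 58.9 and 55.6 (log2 -0.20 ± 0.05 SE, adjusted p = 0.00124), a call that upper quartile scaling did not keep (log2 -0.08). ATG16L2 was low, at 3.36, 3.51 and 3.06 CPM and then 2.68, 3.80 and 3.06, with groups that overlapped (log2 -0.05 ± 0.14 SE, adjusted p = 0.734). It shares 680 bp of exon with the far more abundant FCHSD2 on the opposite strand, which went from 45.9 to 26.1 CPM, so its own level is uncertain.

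All 5 tested genes of membrane supply rose, against 41.8% of all genes tested. ATG2A, which bridges the endoplasmic reticulum and the growing membrane and carries lipid between them, was at 36.5, 35.8 and 30.6 CPM in vehicle and 81.0, 81.2 and 86.6 with panobinostat, 2.42-fold higher (log2 1.27 ± 0.06 SE, adjusted p = 4.34e-12). Its paralog ATG2B rose only 1.17-fold (66.7 ± 1.72 to 78.3 ± 2.57 CPM), and per kilobase the ATG2A share of the pair went from 52.5% to 69.5%. ATG2B shares 419 bp of exon with GSKIP on the opposite strand (26.5 to 40.3 CPM). WIPI1, which binds the phosphoinositide made by the PI3-kinase, was at 33.4, 31.2 and 35.0 CPM in vehicle and 55.5, 58.6 and 60.8 with panobinostat (1.75-fold, log2 0.81 ± 0.06 SE, adjusted p = 3.76e-10). WIPI1 shares 539 of its 1890 bp of exon with ARSG on the opposite strand (4.49 to 8.44 CPM). WIPI2, its paralog that recruits ATG16L1, was at 101, 99.5 and 96.2 CPM and then 106, 106 and 109.5, a rise of 1.09-fold (log2 0.12 ± 0.04 SE, adjusted p = 0.0118) that was lost without vehicle replicate 2 (log2 0.10). In both pairs of paralogs the rise was uneven. ATG9A, the scramblase of the seed vesicles, rose 1.31-fold (59.4 ± 3.97 to 77.6 ± 3.45 CPM). Of its 4210 bp of exon 1833 bp are shared with AC068946.2 on the same strand, which is not a line of the table. ATG9B had 3, 2 and 3 counts in vehicle and 14, 13 and 4 with panobinostat, too few to pass the filter on low counts. It was tested in 5 alternatives (no filter, and without vehicle replicate 1, 2 or 3 or panobinostat replicate 3) and called higher in each, with fitted log2 changes of 1.86 to 2.32 and adjusted p of 0.000396 to 0.0134. These fits rest on vehicle counts of 2 or 3. ATG9B also shares 662 bp of exon with NOS3 on the opposite strand, which was at a similar level (0.0711 to 0.269 CPM). With no stated strand setting, the few ATG9B reads may belong to either gene.

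**Figure D3:**
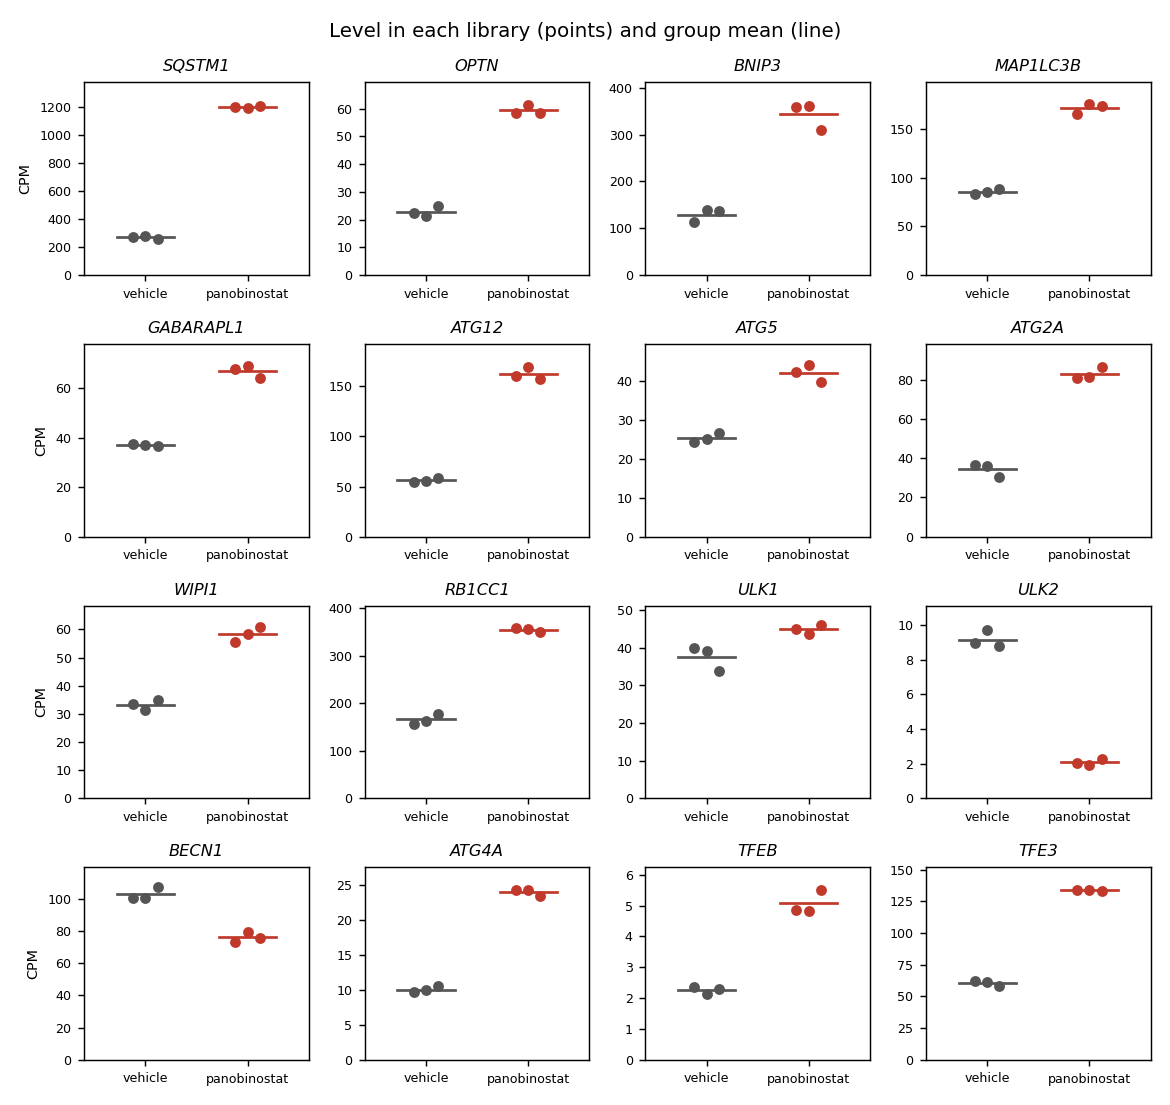
Points are the CPM of single libraries and lines are group means for 16 of the genes, each panel on its own linear axis from 0. The 3 vehicle and 3 panobinostat points do not overlap in any panel, and ULK2 and BECN1 are the panels where panobinostat lies lower.

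The initiation kinase genes were split, with 3 of 6 higher and 3 lower, near the shares over all genes tested (41.8% and 41.0%). ULK2 had the largest fall among the autophagy genes, from 8.96, 9.74 and 8.81 CPM in vehicle to 2.04, 1.91 and 2.26 with panobinostat. The vehicle level was 4.43 times the treated one (log2 -2.15 ± 0.11 SE, adjusted p = 4.48e-12). ULK1, its closest relative and the main starting kinase, was at 40.0, 39.2 and 33.8 CPM and then 45.0, 43.6 and 46.0, a small rise without overlap (1.19-fold, log2 0.25 ± 0.06 SE, adjusted p = 0.00112). ULK3, a more distant kinase of the family, fell by 0.78 on the log2 scale (27.5 ± 2.28 to 15.99 ± 0.0781 CPM). Per kilobase, ULK1 therefore went from 38.3 ± 0.340% to 58.0 ± 0.626% of the summed ULK1, ULK2 and ULK3 level (SD, n = 3), ULK2 from 7.93 ± 0.548% to 2.27 ± 0.157%, and ULK3 from 53.8 ± 0.303% to 39.8 ± 0.779%.

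The partners of ULK1 also differed among themselves. RB1CC1 (FIP200), the scaffold of the complex, was at 157, 163 and 177 CPM in vehicle and 359, 356 and 350.5 with panobinostat, a 2.14-fold rise with a wide gap (log2 1.098 ± 0.04 SE, adjusted p = 1.5e-13). ATG101 rose 1.55-fold (46.7 ± 2.499 to 72.6 ± 2.11 CPM), while ATG13, its direct binding partner, fell by 0.24 on the log2 scale (123 ± 6.71 to 104 ± 4.55 CPM). ATG101 shares 614 of its 1439 bp of exon with AC025259.1 on the opposite strand, which is not a line of the table.

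The PI3-kinase group changed least in size, with 2 of 6 higher, 2 lower and 2 not past the test, and none at 1.5-fold. Among all genes tested 41.8% were higher and 41.0% lower. BECN1 (Beclin 1), the subunit bound by BCL2, was at 100.6, 100.5 and 107 CPM in vehicle and 73.4, 79.3 and 75.4 with panobinostat, lower in each library (log2 -0.43 ± 0.05 SE, adjusted p = 1.06e-07). UVRAG, which forms the complex that acts on endosomes and late steps, fell by 0.51 on the log2 scale (58.8 ± 1.75 to 41.4 ± 3.06 CPM). PIK3C3, the lipid kinase itself, rose 1.12-fold (78.9 ± 3.17 to 88.4 ± 0.746 CPM). ATG14, the subunit that directs the kinase to autophagy, was at 22.5, 21.5 and 24.0 CPM and then 26.7, 26.6 and 22.9. Its groups overlapped and the call was marginal (1.12-fold, log2 0.17 ± 0.07 SE, adjusted p = 0.0336). It was lost without vehicle replicate 1 (log2 0.15), vehicle replicate 2 (log2 0.11), panobinostat replicate 1 (log2 0.13) or panobinostat replicate 2 (log2 0.13). PIK3R4, the regulatory subunit, was at 100.4, 104 and 99.8 CPM and then 98.3, 102 and 100.5 (log2 -0.02 ± 0.04 SE, adjusted p = 0.69). AMBRA1, at 54.3, 51.6 and 47.7 CPM and then 51.5, 51.6 and 55.1, did not pass either (log2 0.04 ± 0.05 SE, adjusted p = 0.476). With upper quartile scaling PIK3R4 (log2 0.10) and AMBRA1 (log2 0.16) passed as rises.

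Both transcription factor genes rose by similar folds from very different levels. TFEB was at 2.35, 2.14 and 2.31 CPM in vehicle and 4.86, 4.84 and 5.51 with panobinostat, 2.23-fold higher without overlap (log2 1.16 ± 0.12 SE, adjusted p = 5.9e-08). TFE3 was at 62.1, 61.3 and 58.5 CPM and then 134, 134 and 133, 2.21-fold higher (log2 1.14 ± 0.04 SE, adjusted p = 6.31e-14). MITF, another member of the family and the melanocyte lineage factor, fell by 0.69 on the log2 scale, from 53.5 ± 2.23 to 33.2 ± 0.716 CPM. TFEC, a further member, had 1 to 5 counts in vehicle and 7 to 12 with panobinostat and was not tested. Per kilobase TFEB held 1.88% of the summed level of TFEB, TFE3 and MITF in vehicle and 2.48% with panobinostat. TFE3 went from 65.7% to 85.7%, and MITF from 32.4% to 11.9%. mRNA levels do not report where these factors are in the cell, which is the step that mTORC1 controls.

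Ordered by CPM per kb of exon, SQSTM1 led in vehicle (77.1 ± 2.46, SD, n = 3), close to NBR1 (73.5 ± 1.95). TAX1BP1 (67.2 ± 3.001) and GABARAPL2 (66.8 ± 2.54) followed within their spread of each other. TFEB (0.507) and ATG9B (0.0136) were the lowest. With panobinostat SQSTM1 (344 ± 2.29) stood far above the next gene, BNIP3, which moved from place 7 to place 2, while NBR1 went from place 2 to 6 and BECN1 from 6 to 14. OPTN moved from place 32 to 23, ATG4A from 38 to 26 and ULK3 from 25 to 36.

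Genes outside the 43 that act in the same pathway were read from further lists. Their counts stand beside the shares over all genes tested, of which 41.8% rose and 41.0% fell. For fusion of autophagosomes with lysosomes, 10 of 16 tested genes rose and 3 fell, with a median log2 change of 0.27. The rises were led by the endosomal SNARE STX7 (2.16-fold, 23.8 ± 1.55 to 51.4 ± 2.81 CPM), the tethering subunit VPS16 (1.74-fold) and the SNARE YKT6 (1.67-fold). VAMP8, the lysosomal SNARE, fell by 1.08 on the log2 scale (10.8 ± 0.811 to 5.09 ± 0.263 CPM), and its autophagosomal partner STX17 fell by 0.18. VAMP7 had 0 counts in every library and was not tested. How reads of VAMP7 were assigned is not known, so this does not show that the gene is silent.

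Of 15 other core genes and regulators 9 rose and 2 fell (median log2 0.37). TP53INP2, which binds ATG8 proteins, rose 6.45-fold (15.1 ± 0.475 to 97.5 ± 4.27 CPM), more than any of the 43. TP53INP1 rose 2.66-fold, and VMP1, a lipid scramblase of the endoplasmic reticulum, rose 2.43-fold (129 ± 6.79 to 314 ± 11.1 CPM). EI24, a membrane protein of the endoplasmic reticulum, and WDFY3 (ALFY), an adaptor for aggregates, fell by 0.89 and 0.63 on the log2 scale. Other selective receptors moved in both directions, with 7 of 15 higher and 6 lower (median log2 0.11), as did all genes (41.8% higher, 41.0% lower). PINK1, the kinase that marks damaged mitochondria, rose 3.09-fold and CALCOCO1 rose 2.83-fold, while RETREG1 (FAM134B in the table), a receptor for the endoplasmic reticulum, fell by 1.07 and the mitochondrial PHB2 fell by 0.56 on the log2 scale.

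Upstream, the mTORC1, AMPK and Rag genes did not lean upward, with 13 of 35 higher, 16 lower and a median log2 change of -0.10. Over all genes tested 41.8% rose and 41.0% fell, a split that this list stayed near. SESN3, a restraint on mTORC1, rose 2.70-fold, and the AMPK subunit genes split, with 3 of 6 higher and 3 lower. PRKAA2, PRKAG2 and PRKAB2 rose 2.53-fold, 2.25-fold and 1.66-fold, while PRKAA1 (159 ± 18.0 to 134 ± 12.7 CPM), PRKAG1 (150.4 ± 6.68 to 136 ± 2.12 CPM) and PRKAB1 (33.9 ± 1.03 to 27.1 ± 1.47 CPM) fell. The PRKAA1 call was marginal (log2 -0.25 ± 0.10 SE, adjusted p = 0.0459). SESN1, a relative of SESN3, fell by 0.90 on the log2 scale. AKT1S1, an inhibitory subunit of mTORC1, and MLST8, another subunit, fell by 0.66 and 0.65. The list mixes genes that promote mTORC1 with genes that restrain it, and whether mTORC1 activity changed was not tested. Downstream, 19 of 23 lysosomal genes reported as TFEB targets rose and 3 fell, with a median log2 change of 0.55. NEU1, a sialidase, rose 3.58-fold and PSAP, the saposin precursor, rose 2.34-fold. NAGLU, SGSH and HEXA, hydrolases of heparan sulfate or gangliosides, fell by 1.247, 0.82 and 0.49. Of 7 tested genes of the TFEB family, calcineurin and FOXO factors, 4 rose and 2 fell, with FOXO1 3.002-fold higher. Among the genes of calcineurin, the phosphatase that acts on TFEB, the catalytic subunits PPP3CA and PPP3CB rose 2.14-fold and 1.24-fold. PPP3CC did not pass (log2 0.03 ± 0.09 SE, adjusted p = 0.786), and the regulatory subunit PPP3R1 fell by 0.60 on the log2 scale.

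**Figure D4:**
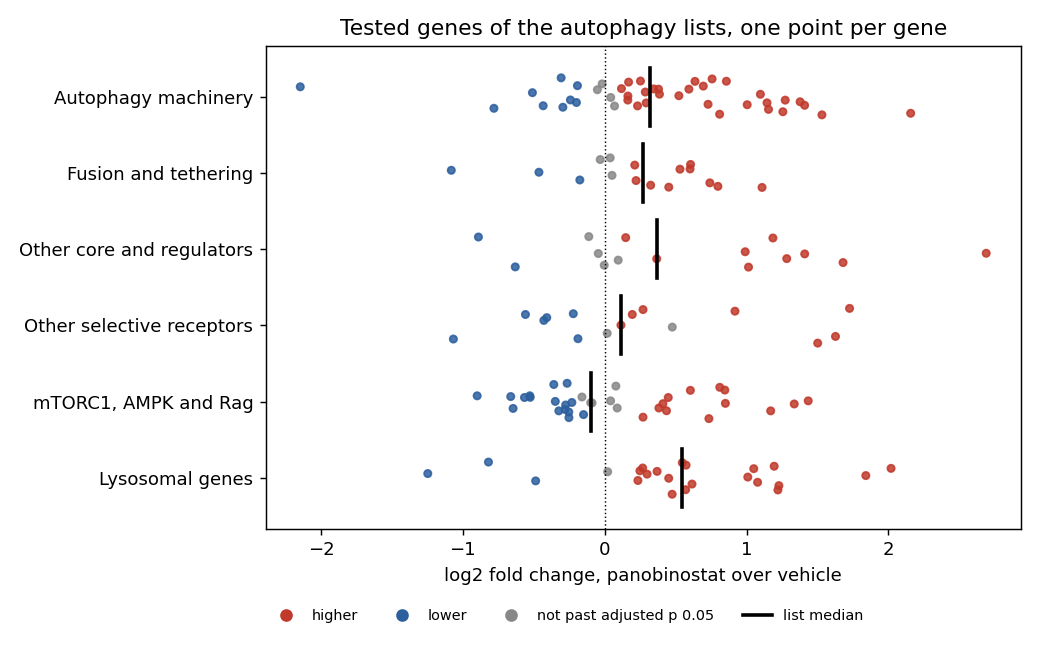
Each point is 1 tested gene at its log2 fold change, panobinostat over vehicle, in rows for the autophagy machinery and 5 further lists, and the black bar is the list's median. The medians run from -0.10 for the mTORC1, AMPK and Rag genes to 0.55 for the lysosomal genes, and every row holds genes on both sides of 0.

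Promoter letters were read for the 38 of the 43 genes found in the set of RefSeq promoters used here. They cover the 250 bases before each listed start, on both strands. The E-box CACGTG, the core of the element bound by TFEB and TFE3, was in 4 of the 38 (10.5%), against 7.73% of 27305 genes, and the longer TCACGTGA in none, against 1.04%. The 4 windows of 30 bases around the E-box are shown because they carry the only matches, with the E-box in capitals, each 5′ to 3′ along its gene on the minus strand of GRCh38.p14 (ATG14 at chr14:55411834-55411863, ATG3 at chr3:112561963-112561992, BNIP3 at chr10:131982040-131982069 and ULK3 at chr15:74843311-74843340).
ATG14: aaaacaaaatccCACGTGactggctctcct
ATG3: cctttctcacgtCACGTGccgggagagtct
BNIP3: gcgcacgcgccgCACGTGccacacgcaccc
ULK3: cctccgtatcccCACGTGggccctgcagga
Of these genes BNIP3 rose 2.66-fold, ATG14 rose marginally, and ATG3 and ULK3 fell, so the E-box genes did not share a direction. The GC box GGGCGG was in 28 of 38 (73.7%), against 46.2% of all genes (those for noncoding RNA included), the AP-1 motif TGACTCA in 2 (5.26% against 5.19%), and TGACNNNGC, the core of the antioxidant response element, in 5 (13.2% against 13.2%). A match is a string of letters and not a bound site. These windows cover only the bases before listed starts, not the rest of each gene or distant elements. Start sites also differ between annotations: 25 of the 30 bases shown for ATG14 and 1 of those for ATG3 are exon in GENCODE 29. The SQSTM1, ULK2, BNIP3 and ULK3 windows hold no exon base. The ATG3 and ULK3 windows still lie inside their genes as GENCODE 29 places them (chr3:112532509-112562046 and chr15:74836116-74843346).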

How the data were processed

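The authors deposited whole-number read counts per gene symbol, not normalized, and the name of the deposited table mentions STAR. Not given in the sources used here are its version, the genome build, the annotation and whether counting used strand. Of 25435 lines, 92 spike-in lines with 0 counts were left out, and 28 lines with symbols turned into dates were kept but not named. Groups came from the labels. The genes, lists and naming rule were chosen with earlier results of these data known. Genes passing filterByExpr were scaled by TMM and tested on group alone with the quasi-likelihood test of edgeR. P-values were adjusted by Benjamini-Hochberg over all genes tested, and genes were called at an adjusted p under 0.05, after checks on simulated data. In the simulation few genes changed, evenly up and down. It therefore does not test scaling or calls where most genes change, as in these data. Values per library are given for genes called with a change of at least 2-fold, for 10 core genes, and for genes whose call depended on the processing. Up to 3 called genes per direction of a further list, at 5 CPM or more, could be named. Further AMPK and calcineurin subunits and low markers were named after their values were seen. Exon lengths are GENCODE 29 unions on GRCh38, assumed for CPM per kb. Promoters are RefSeq's, on GRCh38.p14. Software was R 4.3.3, edgeR 4.0.16, limma 3.58.1, DESeq2 1.42.0, Python 3.11.15 and matplotlib 3.10.9.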

Additional observations from a re-analysis of the deposited data

How the results depend on the processing

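Alternatives were DESeq2, limma-voom, scaling by RLE, upper quartile or library totals, dropping the filter, requiring 5 CPM in 3 libraries, a replicate block, and leaving out each library in turn. Across them 26 to 32 of the same 42 autophagy genes rose, 7 to 9 fell and the median log2 change was 0.27 to 0.44. Of all genes called, 49.4% (5 CPM filter) to 57.3% (upper quartile scaling) were higher. Among the 42, 33 kept call and direction in all alternatives where tested. TFEB and ATG16L2 were not tested with the 5 CPM filter. Leaving out 1 library gave 26 to 30 higher of the 42, or 27 to 31 with ATG9B counted where it was tested. Upper quartile scaling moved the median of all genes from 0.01 to 0.13 on the log2 scale. It called 7313 of all 15499 genes higher and 5453 lower, against 6471 and 6355 in the main fit. With no filter the median of all genes was 0.12. Small changes reversed for PIK3R4 (0.10 with upper quartile scaling, 0.0767 with the 5 CPM filter), ATG16L2 (0.0684 with upper quartile scaling, 0.0600 without panobinostat replicate 1, where leaving out 1 library gave -0.207 to 0.0600) and AMBRA1 (-0.0015 with no filter, -0.0245 without vehicle replicate 3, where leaving out 1 library gave -0.0245 to 0.0705). PIK3R4 and AMBRA1 (0.16) passed as rises with upper quartile scaling, as did TAX1BP1 (0.19), and NBR1 no longer passed (-0.07). The 5 CPM filter also passed AMBRA1 (0.14) and TAX1BP1 (0.16), and no longer passed ATG3 (-0.10). TAX1BP1 also passed with RLE scaling, with library totals and without vehicle replicate 3 (0.09 each). With no filter ATG14 (0.13), WIPI2 (0.07) and ATG4B (0.12) no longer passed. The cause was not tested.

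Replicate numbers gave no sign of pairing, though with 3 libraries per group this check cannot exclude it. Deviations of same-numbered libraries from their group means correlated at -0.141 to -0.0576 across genes. With a replicate block 28 of the 42 autophagy genes rose and 9 fell, and ATG14 (0.17) was the 1 call lost. Of all 15499 genes, 6259 rose and 6150 fell with the block.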
